A study of Mus musculus with 8 samples.

Results

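The extracellular matrix genes described here were the collagens, laminins, integrins, fibulins, fibrillins and thrombospondins measured in cells sorted from the mouse limb bud. They were chosen by gene symbol, and the rule found 84 of the 18193 genes that a probe set names, through 171 probe sets. The symbol rule takes in 3 integrin-binding proteins that are not integrins (Itgb1bp1, Itgb1bp2 and Itgb3bp) and leaves out integrins with a letter in place of a number, such as Itgav. Of the 84 genes, 73 passed the filter on low values and were tested.

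The samples were 4 ZPA and 4 non-ZPA preparations, all from Shhgfpcre heterozygotes at E10.5, so that the control cells carried the reporter allele too. The limbs were dissociated and sorted by green fluorescence. The ZPA (zone of polarizing activity) group is the fluorescent fraction, which marks cells in which the Shh reporter is on, and the non-ZPA group is every other cell of the limb, ectoderm, vessels, blood and muscle precursors included. RNA (50 ng per preparation) was amplified in 2 cycles and hybridised to Affymetrix Mouse430_2 arrays, whose values are signal intensities.

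ZPA replicates 1 and 2 held the same values, differing by at most 0.5 intensity units at any probe set (the largest such gap of any other pair of arrays was 11381 or more), and were averaged and counted as 1 array (ZPA 1+2). The comparison therefore rests on 3 ZPA and 4 non-ZPA arrays. Title numbers put ZPA 1+2 and non-ZPA 1 and 2 in run 1, and ZPA 3 and 4 with non-ZPA 3 and 4 in run 2. Shh, the check of the sort, read 6226, 12148 and 11191 on ZPA 1+2, 3 and 4. It read 319 and 203 on non-ZPA 1 and 2 of run 1, and 868.5 and 1085 on non-ZPA 3 and 4 of run 2. The non-ZPA arrays of both runs thus differed in Shh, and the part of this in the differences between runs was not tested. The ratio of 3′ to 5′ signal for Actb, a measure of RNA length, was 21.6 on ZPA 4 and between 2.04 and 5.37 on the other 6 arrays. Spiked hybridisation controls were 11.03, 1.57 and 7.03 times the non-ZPA mean on ZPA 1+2, 3 and 4, and each non-ZPA array lay between 0.610 and 1.303 times that mean. ZPA 1+2 and ZPA 4 thus stood apart from ZPA 3, and the part of this in the results was not tested. With ZPA 3 as the only ZPA array, the log2 differences of the genes called below were -3.18 for Col1a2, -2.02 for Fbln5 and 1.33 for Lama1. The labels do not say whether the preparations came from separate litters, so p-values measure the spread between these arrays.

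The extracellular matrix is built of a few large protein families. Collagens form fibrils, networks and basement membrane sheets, laminins polymerise into the basement membrane beneath epithelia, and fibulins and fibrillins build elastic fibres and microfibrils. Integrins, each an alpha and a beta chain, are the receptors through which cells bind these proteins. In the limb bud the mesenchyme lies beneath a surface ectoderm on a basement membrane, and the cartilage and tendon that later fill the limb are rich in collagen. The ZPA is the posterior mesenchyme that secretes Shh and patterns the digits.

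Of the 73 genes tested, 3 differed between ZPA and non-ZPA cells, and these lay in different families. Lama1, a laminin alpha chain, was 2.998-fold higher in ZPA cells, while Col1a2, a chain of the main fibrillar collagen, was 7.17-fold lower and Fbln5, an elastic fibre protein, 4.51-fold lower. This was 4.11% of the genes tested here, beside 2.44% of all 13341 genes tested (326 genes, of which 57, or 0.427%, were higher and 269, or 2.02%, lower in ZPA cells). Tests were made on log2(intensity + 16) with limma, and a gene was called at an adjusted p under 0.05. On this scale the median log2 fold change of the 73 genes was -0.10, with 34 above and 39 below 0, and that of all genes was 0.00 (-0.0037). At an unadjusted p under 0.05 stood 18 of the 73 and 2571 of all genes. Groups of arrays did not overlap for 4 genes higher and 8 lower in ZPA cells, 16.4% of the 73, beside 18.3% of all genes (7.77% higher and 10.6% lower), so that this share was near the background of the whole array. The 4 include Itga5, which passed the filter only through ZPA arrays. A fit that also allowed for the run, described next to the genes it bears on, called 1 gene higher and 3 lower of the 73, beside 0.855% and 3.15% of all genes. After median centring of each array the 73 gave 0 higher and 4 lower, and all genes 48 higher and 420 lower.

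**Figure D1:**
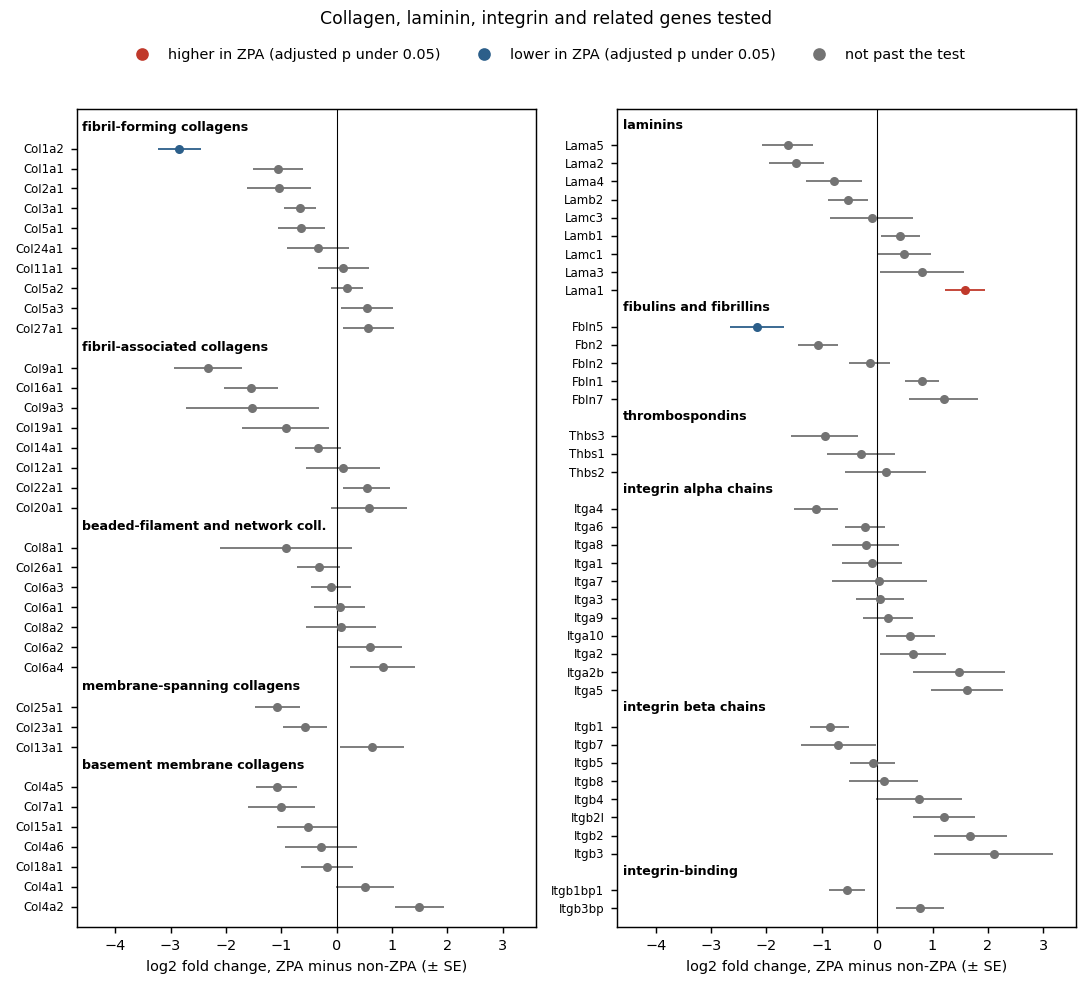
Log2 fold change (ZPA minus non-ZPA, horizontal axis, with its standard error) of each of the 73 genes tested, grouped by family. Col1a2 at -2.84 and Fbln5 at -2.17 were called lower, Lama1 at 1.58 was called higher, and the other genes did not pass the test.

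The start regions of Col1a2 and Fbln5 are printed because these were the genes called lower. RefSeq's table (build GRCm38.p6) holds such a window for 62 of the 84 genes. Each line gives the 250 bases before the annotated start, read 5′ to 3′ on the gene's own strand, which is the forward strand for Col1a2 (chr6:4505368-4505617) and the reverse strand for Fbln5 (chr12:101819120-101819369). Capitals mark the letters CCAAT, the core of the CCAAT box, and GGGCGG, the GC box, each searched on both strands (CCGCCC is the GC box on the opposite strand).
Col1a2: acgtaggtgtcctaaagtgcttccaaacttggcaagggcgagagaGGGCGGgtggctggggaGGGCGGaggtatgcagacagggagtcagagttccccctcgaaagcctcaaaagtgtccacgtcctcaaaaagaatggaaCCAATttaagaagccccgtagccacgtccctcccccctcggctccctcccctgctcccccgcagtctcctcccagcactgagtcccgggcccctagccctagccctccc
Fbln5: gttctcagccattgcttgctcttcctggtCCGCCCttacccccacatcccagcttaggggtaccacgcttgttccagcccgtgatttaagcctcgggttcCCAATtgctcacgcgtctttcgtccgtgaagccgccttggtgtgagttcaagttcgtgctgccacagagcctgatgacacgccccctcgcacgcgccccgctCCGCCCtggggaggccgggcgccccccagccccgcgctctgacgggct
Col1a2 had CCAAT beginning 109 bases before the start and GGGCGG at 205 and 188 bases. Fbln5 had CCAAT at 150 bases and the GC box on the opposite strand at 221 and 48 bases. Among 32851 windows of the same length, 33.8% held CCAAT and 32.7% held GGGCGG. A match describes the letters only.

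Among fibril-forming collagens, 10 of 11 genes were tested, 1 was called lower (Col1a2) and none higher, with 3 at an unadjusted p under 0.05 by limma and a family median of -0.48 (-0.485). Col1a2, the alpha 2 chain of type I collagen, read 1844, 903 and 902 on ZPA 1+2, 3 and 4, against 9046, 14132, 6329 and 5906 on non-ZPA 1 to 4. Every ZPA array lay far below every non-ZPA array. The means were 1216 ± 543 units in ZPA cells and 8853 ± 3784 units in non-ZPA cells (SD, n = 3 and 4). The log2 fold change was -2.84 ± 0.38 (SE), with an adjusted p of 0.00322. All 3 tested probe sets of Col1a2 were lower in ZPA cells. Within run 1 the log2 difference was -2.61 and within run 2 it was -2.74. A fit blocked on the run gave -2.69 ± 0.29 (adjusted p = 0.000731). Run 1 has a lone ZPA array, whose spread is assumed equal to that of the non-ZPA pair. Without each array in turn the adjusted p of Col1a2 was at most 0.0217.

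Col1a1, the alpha 1 chain that assembles with the Col1a2 product, read 283, 211 and 254 in ZPA cells, against 582, 1204, 433 and 260 in non-ZPA cells. The groups overlapped by 1 ZPA array, ZPA 1+2, which lay above non-ZPA 4. The log2 fold change was -1.06 ± 0.46 (adjusted p = 0.229), so that the partner chain of Col1a2 did not pass the test. Col3a1, which forms mixed fibrils with type I collagen, read 7294, 9923 and 6466 in ZPA cells, against 9950, 15295, 13766 and 11004 in non-ZPA cells. Its groups did not overlap, by a narrow margin, and the log2 fold change was -0.67 ± 0.29 (adjusted p = 0.230). Col2a1, the collagen of cartilage, read 412, 97.6 and 417 in ZPA cells, against 853, 1150, 326 and 284 in non-ZPA cells. Its log2 fold change of -1.04 ± 0.58 (adjusted p = 0.359) did not pass. ZPA 3 was the low array, and without it the log2 fold change was -0.40. The other fibril-forming genes tested (Col5a1, Col5a2, Col5a3, Col11a1, Col24a1 and Col27a1) had log2 fold changes of -0.64 to 0.57, and Col11a2 did not pass the filter.

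Fibril-associated collagens sit on the surface of fibrils. Of 9 genes, 8 were tested and 0 were called by limma, with 2 at an unadjusted p under 0.05 and a median of -0.63 (-0.625). Col9a1, which decorates type II collagen fibrils of cartilage, read 1889, 905 and 205 in ZPA cells, against 4381, 6644, 2656 and 2278 in non-ZPA cells. The groups did not overlap, and ZPA 4 was the lowest array. The means were 1000 ± 846 and 3990 ± 1992 units in ZPA and non-ZPA cells, and the log2 fold change was -2.33 ± 0.62 (adjusted p = 0.0662). Both tested probe sets were lower in ZPA cells. Blocked on the run, Col9a1 did pass, at -2.08 ± 0.45 (adjusted p = 0.0272, in a fit that called 4% of all genes), and within runs its log2 difference was -1.51 in run 1 and -2.46 in run 2. It passed without ZPA 1+2, at -3.02 (adjusted p = 0.00587), and after median centring (adjusted p = 0.0332). It did not pass without any other array (adjusted p = 0.109 to 0.188), and without ZPA 4 its log2 fold change was -1.47.

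The summed level of cartilage precursor markers was lower in ZPA cells beside Col9a1 and Col2a1. Of 6 markers tested 1 was called lower, Sox9, the regulator of cartilage fate, at 231, 143 and 15.5 in ZPA cells, against 1754, 3344, 2098 and 1917 in non-ZPA cells. The summed level of the 6 was 881 to 1212 in ZPA cells, against 3217 to 5396 in non-ZPA cells. The Sox9 reading on ZPA 4 (15.5) was below the filter level of that array (82.2). The part of these markers in the collagen values was not tested. In sorted bulk cells, fewer cells of a type and less RNA per cell cannot be told apart.

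Col16a1, a fibril-associated collagen of connective tissue, read 48.0, 217 and 282 in ZPA cells, against 576, 447, 413 and 428 in non-ZPA cells. ZPA 1+2 was far below the others, and below its own filter level (91.9), and the groups did not overlap. The log2 fold change was -1.54 ± 0.49 (adjusted p = 0.112). The 2 runs gave unlike sizes, -3.03 in run 1, where ZPA 1+2 is the lone ZPA array, and -0.73 in run 2. Without ZPA 1+2 the log2 fold change was -0.86 (adjusted p = 0.104). Col9a3, a partner chain of Col9a1, is described with the runs. The other fibril-associated genes tested (Col12a1, Col14a1, Col19a1, Col20a1 and Col22a1) ran from -0.92 to 0.58 on the log2 fold change scale and overlapped between groups, and Col9a2 was not tested.

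**Figure D2:**
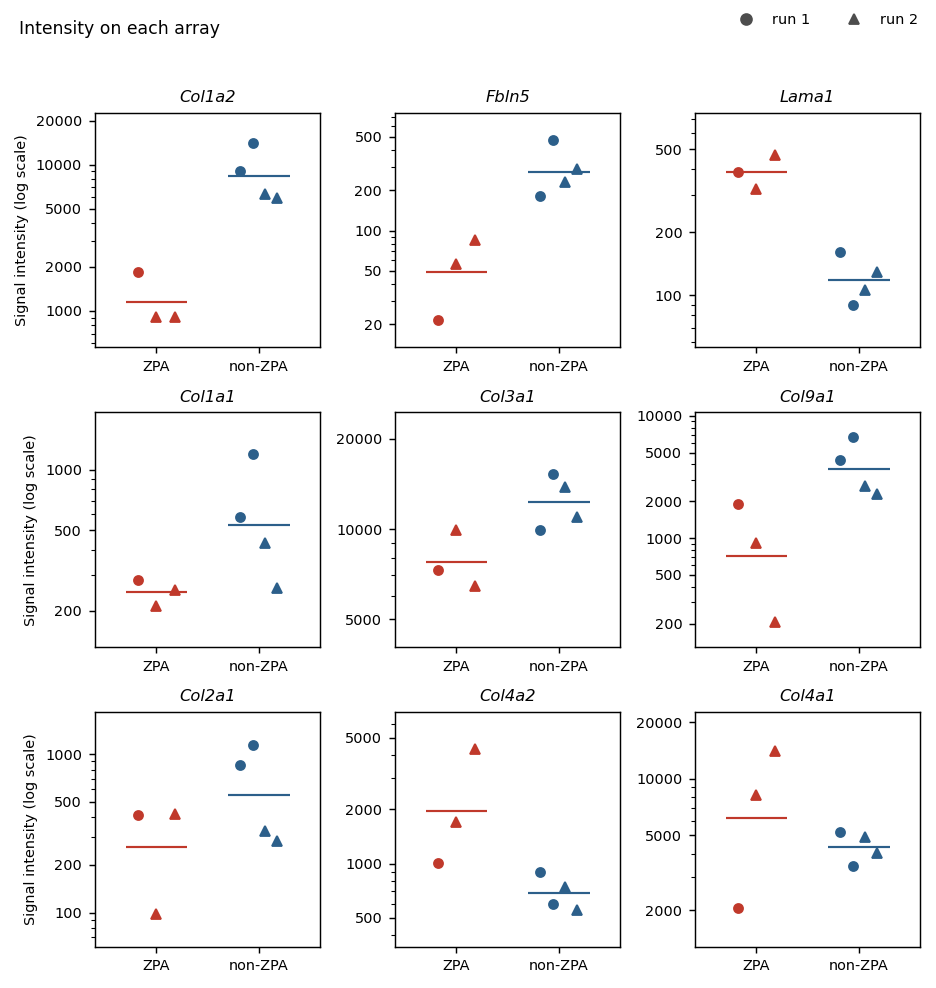
Signal intensity (vertical axes, log scale) on each of the 3 ZPA and 4 non-ZPA arrays for 9 genes, with circles for run 1, triangles for run 2 and a line at the mean of the log2 values of each group. Col1a2, Fbln5, Lama1, Col3a1, Col9a1 and Col4a2 do not overlap between groups, whereas Col4a1 lies below all non-ZPA arrays on ZPA 1+2 and above them on ZPA 3 and 4.

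Beaded-filament and network collagens, the type VI, VIII, X and XXVI genes, showed no call. Of 9 genes 7 were tested, with 0 called and 0 at an unadjusted p under 0.05 by limma, and a median of 0.06 that became -0.21 after median centring. Col26a1, with the highest mean level of this family, read 550, 1516 and 1572 in ZPA cells, against 1653, 1134, 1595 and 1195 in non-ZPA cells. ZPA 1+2 was the low array, ZPA 3 and 4 lay within the non-ZPA range, and the log2 fold change was -0.32 ± 0.39 (adjusted p = 0.702). Col6a1, Col6a2, Col6a3, Col6a4 and Col8a2 ran from -0.10 to 0.83 in log2 fold change. Membrane-spanning collagens, which are surface proteins with collagen domains, had 3 of 4 genes tested and 0 called, with 1 at an unadjusted p under 0.05 by limma. Col25a1, the highest of them, read 875, 798 and 373 in ZPA cells, against 808, 2174, 1324 and 1463 in non-ZPA cells. Only non-ZPA 1 fell within the ZPA range, and the log2 fold change was -1.07 ± 0.41 (adjusted p = 0.174), while a second, dimmer probe set of Col25a1 gave 0.76. Col23a1 and Col13a1 had -0.57 and 0.64 on the log2 fold change scale.

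The basement membrane collagens had 7 of 9 genes tested, 0 called and 2 at an unadjusted p under 0.05 by limma, with a median of -0.28. The main chains of type IV collagen, Col4a1 and Col4a2, are made from a shared promoter and assemble together. Col4a2 read 1009, 1699 and 4340 in ZPA cells, against 902, 597, 742 and 552 in non-ZPA cells. The groups did not overlap, ZPA 1+2 lay just above non-ZPA 1, and ZPA 4 stood highest. The means were 2349 ± 1758 units in ZPA cells and 698 ± 158 units in non-ZPA cells, and the log2 fold change was 1.49 ± 0.44 (adjusted p = 0.0948). Col4a1 read 2051, 8208 and 14115 in ZPA cells, against 5188, 3433, 4929 and 4020 in non-ZPA cells. It was lowest of all arrays on ZPA 1+2 and highest on ZPA 3 and 4, at 0.51 ± 0.52 on the log2 fold change scale (adjusted p = 0.635).

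The log2 difference of Col4a1 was -1.04 in run 1, where ZPA 1+2 is the lone ZPA array, and 1.27 in run 2 (adjusted p = 0.0828). The difference between runs, tested as an interaction, was 2.31 and did not pass (adjusted p = 0.0538), and for ZPA cells of run 1 the run and the array cannot be told apart. Without ZPA 1+2 both chains passed, Col4a1 at 1.31 (adjusted p = 0.0120) and Col4a2 at 1.96 (adjusted p = 0.00768). Without ZPA 4 they stood at -0.08 (Col4a1) and 0.92 (Col4a2). In run 2 alone Col4a2 was called at 2.06 (adjusted p = 0.0429). Col4a5, a type IV chain of specialised basement membranes, read 243, 198 and 213 in ZPA cells, against 475, 728, 543 and 274 in non-ZPA cells. These groups did not overlap, and the log2 fold change was -1.08 ± 0.37 (adjusted p = 0.138), whereas its other tested probe set gave 0.81. Col4a6, Col7a1, Col15a1 and Col18a1 ran from -1.0 to -0.17 with overlapping groups, and Col4a3 and Col4a4 did not pass the filter.

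Laminins carried the only call in the higher direction. Of 10 genes 9 were tested, 1 was called (Lama1, higher) and 3 had an unadjusted p under 0.05, with a family median of -0.10. Lama1, the alpha chain of the earliest embryonic laminin, read 389, 323 and 466 in ZPA cells, against 161, 90.1, 106 and 129 in non-ZPA cells. The lowest ZPA array was above the highest non-ZPA array. The means were 393 ± 71.7 units in ZPA cells and 121 ± 30.5 units in non-ZPA cells (SD, n = 3 and 4), and the log2 fold change was 1.58 ± 0.36 (adjusted p = 0.0421). Within runs the log2 difference of Lama1 was 1.565 in run 1, from its lone ZPA array, and 1.604 in run 2, where it did not pass (adjusted p = 0.118), and blocked on the run it was 1.59 (adjusted p = 0.0379). The call was near the threshold. It was lost without ZPA 3 (adjusted p = 0.0530), ZPA 4 (0.0852) or non-ZPA 1 (0.0854), 2 (0.145), 3 (0.134) or 4 (0.103), after median centring (0.0847) and with no filter (0.0816). The log2 fold change stayed between 1.46 and 1.71 over the arrays left out.

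Lama5, the alpha chain of laminins beneath the ectoderm, read 85.0, 62.8 and 30.9 in ZPA cells, against 213, 126, 236 and 272 in non-ZPA cells. The groups did not overlap and both tested probe sets were lower in ZPA cells, and the log2 fold change was -1.61 ± 0.46 (adjusted p = 0.0824). ZPA 1+2 and ZPA 4 were below the filter level for Lama5. It passed after median centring (adjusted p = 0.0397) and without ZPA 1+2, at -1.86 (adjusted p = 0.0257), but not without any other array (adjusted p = 0.106 to 0.224). Its other tested probe set, which stood for the gene under a 60th percentile filter, gave -0.64 (adjusted p = 0.547). The summed level of surface ectoderm markers was lower in ZPA cells beside it. Of 13 such markers 2 were called lower (Dsp and Epcam), their median log2 fold change was -1.29, and their summed level was 1124 to 3192 in ZPA cells, against 4383 to 8609 in non-ZPA cells. Dsp read 79.0 on ZPA 1+2, below the filter level of that array (91.9). The part of these markers in the Lama5 value was not tested.

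Lama2, the alpha chain of muscle basement membrane, read 34.6, 53.5 and 108 in ZPA cells, against 264, 269, 192 and 99.2 in non-ZPA cells. ZPA 4 lay above non-ZPA 4, and the log2 fold change of -1.46 ± 0.50 did not pass (adjusted p = 0.133). The summed level of muscle precursor markers was lower in ZPA cells beside it, with 4 of 7 tested called (Eya1, Met, Myf5 and Pax3). The 8 with a probe set summed to 349 to 521 in ZPA cells, against 1737 to 4573 in non-ZPA cells. Myf5 read 22.8, 3.4 and 26.8 on ZPA 1+2, 3 and 4, below the filter level of each array (91.9, 50.8 and 82.2). The part of these markers in the Lama2 value was not tested. Lamb1, a beta chain shared by many laminins and the highest of the family, read 4725, 5045 and 5430 in ZPA cells, against 6760, 4133, 2405 and 3035 in non-ZPA cells. The ZPA values lay close together within the wider non-ZPA range, and the log2 fold change was 0.42 ± 0.36 (adjusted p = 0.565). Lama3, Lama4, Lamb2, Lamc1 and Lamc3 ran from -0.79 to 0.81, and Lamb3 did not pass the filter.

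The symbol rule found 5 fibulins and fibrillins (Fbln1, Fbln2, Fbln5, Fbln7 and Fbn2) and no probe set named for Fbn1 alone. All 5 were tested, with 1 called lower (Fbln5), 3 at an unadjusted p under 0.05 by limma and a median of -0.14. Fbln5, which organises elastic fibres and binds integrins, read 21.5, 56.1 and 84.3 in ZPA cells, against 181, 473, 231 and 288 in non-ZPA cells. The groups lay well apart. The reading on ZPA 1+2 was below the level of the filter on that array (91.9), and those on ZPA 3 and 4 were just above it (50.8 and 82.2), so the ZPA values are near the floor of the measurement. The means were 54.0 ± 31.5 units in ZPA cells and 293 ± 128 units in non-ZPA cells (SD, n = 3 and 4), and the log2 fold change was -2.17 ± 0.48 (adjusted p = 0.0366). Within runs the log2 difference of Fbln5 was -3.05 in run 1, with its lone ZPA array below the filter level, and -1.69 in run 2, where it did not pass (adjusted p = 0.147). The size depended on the pseudocount, at -2.53 with a pseudocount of 1 and -1.57 with 64. The call was lost without ZPA 3 (adjusted p = 0.0643) or non-ZPA 1 (0.0679), 2 (0.154), 3 (0.110) or 4 (0.110), and with no filter (0.0604).

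Fbn2, the fibrillin of embryonic microfibrils, read 2038, 3094 and 1193 in ZPA cells, against 5331, 4587, 3624 and 3290 in non-ZPA cells. These groups did not overlap, at -1.07 ± 0.36 on the log2 fold change scale (adjusted p = 0.125). Its other tested probe set went the other way, at 2084, 1735 and 6783 in ZPA cells, against 1464, 1806, 1250 and 878 in non-ZPA cells, a log2 difference of 1.15. Fbn2 therefore has no settled direction here. Fbln1, a fibulin of basement membranes and connective tissue, read 2885, 4232 and 5032 in ZPA cells, against 2570, 2519, 2035 and 1940 in non-ZPA cells. Every ZPA array was above every non-ZPA array, at 0.81 ± 0.30 on the log2 fold change scale (adjusted p = 0.166), but the other 2 tested probe sets were lower in ZPA cells by log2 differences of -1.12 and -0.13. Of the 30 genes with more than 1 tested probe set, 13 had all probe sets on the same side of 0. Fbln2 and Fbln7 had log2 fold changes of -0.14 and 1.201.

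Integrin alpha chains, which set what an integrin binds, were all tested (11 of 11), with 0 called and 2 at an unadjusted p under 0.05 by limma. Their median was 0.05, and -0.16 (-0.155) after median centring. Itga5, the alpha chain of the classical fibronectin receptor, read 113, 73.0 and 141 in ZPA cells, against 5.0, 13.9, 63.2 and 33.3 in non-ZPA cells. The groups did not overlap, and the log2 fold change was 1.62 ± 0.64 (adjusted p = 0.192). Of the 73 genes, Itga5 alone passed the filter only through the group in which it read higher, since it was above the level on 3 ZPA and 0 non-ZPA arrays. It reached the 4 columns of the filter only because ZPA 1 and 2 count separately. The filter thus favoured its separation, and the counts of non-overlapping genes and of genes at an unadjusted p under 0.05 by limma include it. Another probe set of Itga5, brighter on average and not above the filter, read 110, 37.6 and 32.2 in ZPA cells, against 51.9, 46.4, 85.9 and 42.6 in non-ZPA cells, with no separation of the groups.

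Itga4, the alpha chain of a receptor for fibronectin and VCAM1, read 122, 156 and 301 in ZPA cells, against 292, 562, 446 and 369 in non-ZPA cells. Only ZPA 4 reached the non-ZPA range, and the log2 fold change was -1.11 ± 0.39 (adjusted p = 0.1503). Itga8, the alpha chain of the nephronectin receptor and the highest of its family, read 2909, 682 and 320 in ZPA cells, against 1281, 1537, 698 and 737 in non-ZPA cells. Its ZPA arrays lay on both sides of the non-ZPA range, at -0.21 ± 0.60 on the log2 fold change scale (adjusted p = 0.892). Itga1, Itga2, Itga3, Itga6, Itga7, Itga9 and Itga10 ran from -0.22 to 0.64 with overlapping groups.

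Of the integrin beta chains, 8 of 9 were tested, with 0 called and 2 at an unadjusted p under 0.05 by limma. The family median was 0.44 and stayed above 0 after quantile normalisation (0.26) and median centring (0.17). By array, the family's median log2 difference from the non-ZPA mean was 1.17 on ZPA 1+2, -0.52 on ZPA 3 and 1.17 on ZPA 4, so that the ZPA arrays did not share a direction. Itgb1, the partner of most alpha chains that bind collagen, laminin or fibronectin, read 1033, 576 and 444 in ZPA cells, against 942, 1315, 1153 and 1353 in non-ZPA cells. ZPA 1+2 lay within the non-ZPA range and ZPA 3 and 4 below it, and the log2 fold change was -0.86 ± 0.35 (adjusted p = 0.198), with all 3 tested probe sets lower in ZPA cells and 3 that did not pass the filter above 0. Itgb5, which pairs with the alpha v chain to bind vitronectin, had the highest mean level of the family. It read 780, 1622 and 3095 in ZPA cells, against 1735, 1487, 1690 and 1782 in non-ZPA cells. ZPA 1+2 was the lowest and ZPA 4 the highest of all arrays, at -0.08 ± 0.41 on the log2 fold change scale (adjusted p = 0.944) and the 3 other tested probe sets above 0. Itgb2, Itgb2l, Itgb4, Itgb7 and Itgb8 ran from -0.70 to 1.69, and Itgb6 did not pass the filter. The integrin-binding proteins tested were Itgb1bp1, an adaptor that binds the tail of the beta 1 chain, at 326, 569 and 458 in ZPA cells, against 539, 658, 662 and 762 in non-ZPA cells (log2 fold change -0.55 ± 0.32, adjusted p = 0.382), and Itgb3bp, at 0.78.

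**Figure D3:**
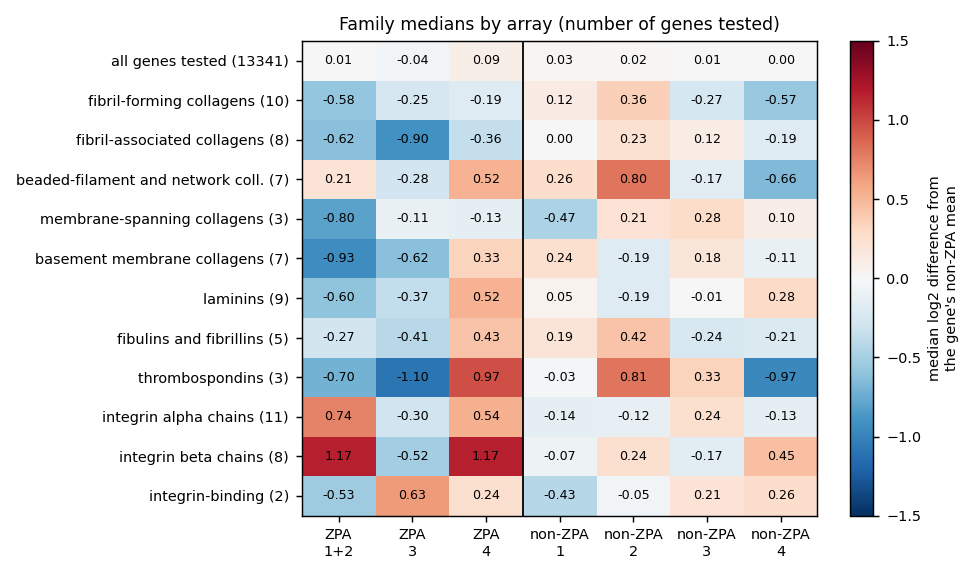
Median log2 difference of each family's tested genes from each gene's non-ZPA mean (colour and printed value), by array in columns and by family in rows, with the number of genes tested and all genes on top. Fibril-associated, fibril-forming and membrane-spanning collagens were below 0 on all 3 ZPA arrays, but each was also below 0 on some non-ZPA array. Fibril-forming collagens were at -0.58, -0.25 and -0.19 on ZPA 1+2, 3 and 4, and at -0.57 on non-ZPA 4. Membrane-spanning collagens were at -0.80, -0.11 and -0.13 on ZPA 1+2, 3 and 4, and at -0.47 on non-ZPA 1. Integrin beta chains were at 1.17 on ZPA 1+2 and ZPA 4 and -0.52 on ZPA 3.

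A pair of integrin chains was high on 1 array alone. Itga2b and Itgb3 form the fibrinogen receptor of platelets, and both were named here after their values were seen. Itga2b read 166 and 153 on ZPA 1+2 and ZPA 3 and 3424 on ZPA 4, against 137, 148, 164 and 164 in non-ZPA cells. Itgb3 read 220, 25.2 and 2687 in ZPA cells, against 49.2, 95.0, 11.8 and 97.2 in non-ZPA cells. The ZPA 4 value was 20.6 times the highest other array for Itga2b and 12.2 times for Itgb3, a pattern that 10 of all genes tested (0.075%) showed at over 10 times. Neither gene passed the test, at log2 fold changes of 1.49 ± 0.83 (Itga2b, adjusted p = 0.358) and 2.11 ± 1.08 (Itgb3, adjusted p = 0.315). Without ZPA 4 these were 0.06 and 0.51.

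Fermt3, or kindlin-3, which activates integrins in blood cells, read 196, 29.0 and 11883 in ZPA cells, against 94.2, 110, 75.9 and 133 in non-ZPA cells. Megakaryocyte markers stood high on ZPA 4 too. Of 9 such markers 7 have a probe set, all 7 were highest on ZPA 4, and their summed level was 4188, 227 and 41842 in ZPA cells, against 459 to 1170 in non-ZPA cells. Pf4, a chemokine of platelet granules, read 2927, 134 and 32223 in ZPA cells, against 826, 215, 329 and 309 in non-ZPA cells. The 11 leukocyte markers summed to 1934, 1021 and 14335 in ZPA cells, against 1219 to 2046 in non-ZPA cells. The largest on ZPA 4 were Laptm5 (4995), Csf1r (3685) and Coro1a (3475). Not every marker was highest there. Ptprc read 165, 83.1 and 136 in ZPA cells and Cx3cr1 213, 88.2 and 66.2, both highest on ZPA 1+2. Itgb2, the beta chain of leukocyte integrins, read 174, 48.7 and 404 in ZPA cells, against 40.5, 22.7, 26.3 and 74.6 in non-ZPA cells. It was 1 of the 2 beta chains at an unadjusted p under 0.05 by limma. The Itgb2 readings on ZPA 3 and non-ZPA 1, 2 and 3 were below the filter levels of those arrays (50.8, 56.1, 51.7 and 63.3). It reached the 4 columns of the filter only because ZPA 1 and 2 count separately, so the size of its difference is not settled. The part of megakaryocyte and leukocyte RNA in these integrin values was not tested.

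**Figure D4:**
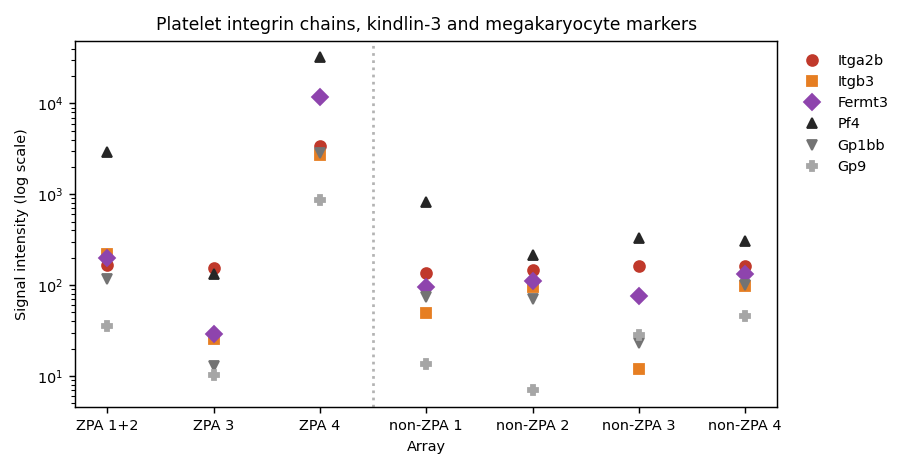
Signal intensity (vertical axis, log scale) of Itga2b, Itgb3, Fermt3 and the megakaryocyte markers Pf4, Gp1bb and Gp9 on each array. Each gene is to be read across arrays, and all 6 were highest on ZPA 4, where Itga2b read 3424 and Itgb3 2687.

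Thrombospondins, secreted glycoproteins that bind matrix and receptors, had 3 of 4 genes tested, with 0 called and 0 at an unadjusted p under 0.05 by limma and a median of -0.29. Thbs3, the highest of them, read 59.0, 129 and 200 in ZPA cells, against 481, 524, 107 and 116 in non-ZPA cells. The high values were non-ZPA 1 and 2, both of run 1, and the pooled log2 fold change was -0.95 ± 0.61 (adjusted p = 0.430). The log2 difference was -2.79 in run 1, where the lone ZPA reading (59.0) was below its filter level (91.9), and 0.48 in run 2. Their difference, tested as an interaction of group and run, was 3.26 ± 0.70 (adjusted p = 0.0456). Of the 73 genes, 1 had such an interaction and 14 had an unadjusted p under 0.05 for it, beside 298 called (2.23%) and 2847 of all genes. With no filter on low values, Thbs3 was no longer called.

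The non-ZPA arrays of both runs differed for other genes as well. Non-ZPA 1 and 2 lay over 4-fold above non-ZPA 3 and 4, with no overlap, for 3 of the 73 genes (Thbs3, Col8a1 and Col9a3) and 72 of all genes (0.54%). Col8a1, a network collagen of vessel walls and the eye, read 173, 9.3 and 122 in ZPA cells, against 387, 1376, 8.0 and 38.1 in non-ZPA cells. Col9a3, a chain of the cartilage collagen type IX, read 98.2, 5.7 and 32.2 in ZPA cells, against 476, 1050, 11.4 and 11.8 in non-ZPA cells. For both genes the run 2 non-ZPA readings were below the filter levels of those arrays (63.3 and 58.9), so the size of the gap between runs is not settled. Col9a2, the remaining type IX chain, did not pass the filter and read 10 to 12.7 in ZPA cells, against 36.1, 140, 6.6 and 7.1 in non-ZPA cells. Group differences in log2 fold change were -0.91 ± 1.19 for Col8a1 and -1.52 ± 1.201 for Col9a3, neither past the test.

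**Figure D5:**
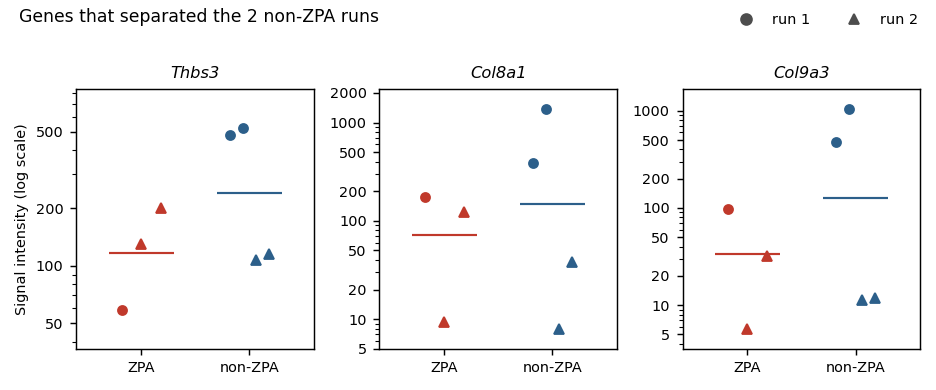
Signal intensity (vertical axes, log scale) of Thbs3, Col8a1 and Col9a3 on the 3 ZPA and 4 non-ZPA arrays, with circles for run 1, triangles for run 2 and a line at the mean of the log2 values of each group. In each gene both run 1 non-ZPA arrays lie above both run 2 non-ZPA arrays.

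Genes that make, modify and break down this matrix were read from lists of other genes. Of 32 genes of collagen synthesis and crosslinking 25 were tested, with 1 called lower, 0 higher and a median of -0.47. Serpinh1, the collagen chaperone, read 3499, 5786 and 6590 in ZPA cells, against 12236, 11525, 12997 and 11974 in non-ZPA cells. The groups lay well apart, and Serpinh1 was 2.38-fold lower in ZPA cells (log2 fold change -1.25 ± 0.29, adjusted p = 0.0458). The call was lost without ZPA 3 (adjusted p = 0.0593) or any non-ZPA array (0.131 to 0.158). P4hb, a subunit of prolyl hydroxylase, averaged 9077 ± 3546 units in ZPA cells, against 17992 ± 1215 units in non-ZPA cells, and did not pass (-1.07, adjusted p = 0.0948), nor did Ppib, a prolyl isomerase of collagen folding (1.02, adjusted p = 0.350).

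Of 33 other matrix proteins 23 were tested, with 2 called lower, 0 higher and a median of -0.36. Mfap4, a microfibril-associated protein, read 32.3, 131 and 24.8 in ZPA cells, against 702, 986, 791 and 333 in non-ZPA cells. It was called lower in ZPA cells (log2 fold change -3.34 ± 0.51, adjusted p = 0.00616), also without each array in turn. Its readings on ZPA 1+2 and ZPA 4 were below the filter levels, and the log2 fold change was -3.76 with a pseudocount of 1 and -2.61 with 64, so its size is not settled. Frem2, which anchors the ectodermal basement membrane, read 79.5, 36.2 and 10.8 in ZPA cells, against 310, 559, 215 and 165 in non-ZPA cells. It was called lower in ZPA cells (-2.54 ± 0.55, adjusted p = 0.0336). All 3 ZPA readings were below their filter levels, and the log2 fold change was -3.10 with a pseudocount of 1 and -1.77 with 64, so its size is not settled. The call was lost without ZPA 3 (0.0713), ZPA 4 (0.0690) or any non-ZPA array (0.0546 to 0.142). Of 17 genes of matrix breakdown 14 were tested, with 1 called lower, 0 higher and a median of -0.99. Adamts9, a protease that cleaves proteoglycans, read 176, 91.8 and 165 in ZPA cells, against 431, 1009, 558 and 416 in non-ZPA cells. It was 3.74-fold lower in ZPA cells (-1.90 ± 0.40, adjusted p = 0.0303), a call lost without ZPA 3 (0.0775) or any non-ZPA array (0.0567 to 0.112). With no filter the calls of Serpinh1 (0.0617) and Frem2 (0.0509) were lost. Mmp2, a gelatinase, and Reck, an inhibitor of such proteases, had 0.62 (adjusted p = 0.571) and -1.09 (adjusted p = 0.176).

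Inside the cell, the integrin-linked adhesion proteins had 20 of 23 genes tested, with 0 called and 4 at an unadjusted p under 0.05 by limma. Their median was 0.28, and -0.01 after median centring. Actn1, an actin crosslinker of adhesion sites, averaged 8507 ± 1104 units in ZPA cells and 6641 ± 792 units in non-ZPA cells (log2 fold change 0.36, adjusted p = 0.506). Fermt2, or kindlin-2, had 0.31 (adjusted p = 0.672). Of 11 integrins outside the symbol rule and other matrix receptors 8 were tested, with 0 called, 1 at an unadjusted p under 0.05 by limma and a median of -0.25. Itgav, the alpha v chain, read 1916, 9533 and 11303 in ZPA cells, against 5251, 6166, 6398 and 4693 in non-ZPA cells. It was lowest on ZPA 1+2 and highest on ZPA 3 and 4, at 0.08 on the log2 fold change scale (adjusted p = 0.953). Ddr1, a collagen receptor kinase of epithelia, read 4718, 87.8 and 678 in ZPA cells, against 9008, 9596, 3612 and 2826 in non-ZPA cells. ZPA 1+2 lay within the non-ZPA range, and the log2 fold change was -2.97 ± 0.95 (adjusted p = 0.115).

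The 11 genes that did not pass the filter were Col10a1, Col11a2, Col17a1, Col4a3, Col4a4, Col6a5, Col9a2, Itgb1bp2, Itgb6, Lamb3 and Thbs4. They read between 2.8 and 140 units over all arrays, beside filter levels of 50.8 to 91.9 units. The main test did not cover these genes. With no filter, where all 84 were tested, none of them was called and only Col1a2 was. At readings this low, whether they differ between ZPA and non-ZPA cells is not settled. Of the 73 tested, 40 were above the filter level on all 7 arrays.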

How the data were processed

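Total RNA of the 8 preparations was labelled by the 2-cycle Affymetrix protocol, per the labels' protocols. The deposited values are signal intensities on a linear scale, which the authors computed in GCOS 1.3 according to the submitters' processing notes. The scaling used is not given in the sources used here. From these, log2(intensity + 16) was computed. Control probe sets (64 of 45101) were left out, and a probe set was tested where it was above its own array's 40th percentile in at least 4 of the 8 columns, in which ZPA 1 and 2 count separately. The tested probe set with the highest mean stood for its gene, named by the platform annotation. The fit was limma 3.58.1 (R 4.3.3; lmFit, eBayes with intensity trend), 2-sided, with Benjamini-Hochberg adjustment over 13341 genes. The number of arrays limits the precision.

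The 84 genes and all gene lists were chosen with earlier results of these data known. Full values are given for called genes, for genes whose groups do not overlap at 2-fold or more and for the highest gene of each family. Of the other pathway lists, called genes are named, or the 2 of highest level where fewer than 2 were called. Of a marker list up to 3 called genes (4 for muscle precursors) or else the highest are named. Marker lists of endothelium, pericytes and smooth muscle, and neural crest and Schwann cells, not described above, had 0 called. Erythroid cells had Hba-x and Slc4a1 called lower, and limb mesenchyme had Lhx2 called higher. Summed endothelium and pericyte levels were highest on ZPA 4 (3823 and 15086), though the list medians were -0.52 and -0.81. Their part in the collagen values was not tested. Col1a1, Col2a1, Col8a1, Col9a2, Col9a3, Fbln1, Itga2b, Itga4, Itgb1, Itgb2, Itgb3, Lama2 and Fermt3 were added after their values were seen. So were the leukocyte markers Coro1a, Csf1r, Cx3cr1 and Ptprc. Alternatives covered scaling, filter, pseudocount, probe set choice, blocks, array weights, threshold, runs and each array left out.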

Additional observations from a re-analysis of the deposited data

Results flagged for a closer look

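Thbs3 differed between runs in its group effect. The log2 difference between ZPA and non-ZPA cells was 3.26 higher in run 2 than in run 1 by the limma interaction test (adjusted p = 0.0456).

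Among the 73 genes tested for an array far from the others in the non-ZPA group, 2 had one (2.74%, where chance gives about 1 in 20 groups). Non-ZPA 2 was lowest for Col6a4, at 28.9 against 60.8 to 63.6 on the other non-ZPA arrays, and its gap was 0.938 of the range (0.9375). Non-ZPA 3 was lowest for Lamc3, at 14.8 against 83.3 to 91.6, and its gap was 0.936 of the range (0.9358). Both low readings were below the filter levels of their arrays (51.7 on non-ZPA 2 and 63.3 on non-ZPA 3), near the floor of the measurement. Groups of 3 ZPA arrays were not tested in this way.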

How the results depend on the processing

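The call of Col1a2 held under every alternative run, and those of Fbln5 and Lama1 did not. Beside the losses given above, both fell short with no intensity trend (adjusted p = 0.0530 each), with the replicate block and ZPA 1+2 as replicate 1 (0.0784 and 0.157) and, in a fit where the non-ZPA arrays alone supply the spread, with ZPA 3 as the only ZPA array, and Lama1 with the probe set of largest variance (0.0682). Genes called among the 73, which were 3, numbered 1 with no filter or no intensity trend, 6 at an adjusted p under 0.10, 7 with array weights, 23 in run 1 alone, and 1 (without ZPA 3 or any non-ZPA array) to 9 (without ZPA 1+2) with an array left out. Genes called over the whole array, which were 326, numbered 172 with the mean of a gene's probe sets, 175 with no trend, 534 with the run block, 768 with ZPA 3 as the only ZPA array (chosen after seeing the data, since its hybridisation controls were nearest to the non-ZPA arrays), 825 at an adjusted p under 0.10, 890 with ZPA replicates 1 and 2 as 2 arrays, 1233 with array weights (384 higher and 849 lower, beside 57 and 269), 3227 in run 1 alone (where the spread comes from the non-ZPA pair), and 101 to 356 with an array other than ZPA 1+2 left out and 1725 without ZPA 1+2. The run interaction was called for 0 of the 73 with no filter by limma.

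Correlations of same-numbered deviations were 0.01 (0.00938), 0.08 (0.0784), -0.02 and -0.01. The value for ZPA 1+2 with non-ZPA 2 (0.0784) was the highest of any pair, while ZPA 3 correlated best with non-ZPA 4 (0.0651). With so few arrays these values cannot show whether replicate numbers pair the arrays. With the replicate block 603 of all genes and 6 of the 73 were called with ZPA 1+2 as replicate 2, and 286 and 2 with it as replicate 1, where Col8a1 turned to 0.12 (0.115).

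Log2 fold changes that turned were these. With the probe set of largest variance, Itgb5 was 0.0897, Col25a1 0.76, Col4a5 0.81, Fbln1 -1.12, Fbn2 1.15 and Lamb1 -0.20. With the mean of probe sets, Itgb5 was 0.15, Fbln1 -0.15 and Fbn2 0.04 (0.038). In run 1 Lamb1 was -0.16, Itga8 1.04 and Col4a1 -1.04 (-1.035). In run 2 Itgb5 was 0.37, Col8a1 0.72, Col26a1 0.16, Col9a3 0.23 and Thbs3 0.48. Without ZPA 1+2 Itgb5 was 0.42 and Col26a1 0.17, without ZPA 4 Itga8 was 0.49 and Col4a1 -0.077, and without non-ZPA 2 Col8a1 was 0.12. Over the single arrays left out other than ZPA 1+2, Itga8 ran from -0.38 to 0.49 (and was -1.075 without ZPA 1+2), Col4a1 from -0.077 to 0.60 and Col8a1 from -1.84 to 0.12. With array weights Itgb5 was 0.0078 and Col26a1 0.0087, with the run block Itga8 was 0.058, with ZPA 1 and 2 as 2 arrays Itga8 was 0.22, with quantile normalisation Itgb5 was 0.019, and with no filter Itga5 was -0.043. With ZPA 3 as the only ZPA array Col26a1 was 0.14 and Itgb3 -0.75. Causes were not tested, beyond the probe set or array that each setting changes. Median centring moved the median of all genes to -0.27 and that of the 73 to -0.37 (-0.365).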
